A study of Homo sapiens with 10 samples.

Results

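The genes described here are those of the cytosolic ribosome, the RPL genes of the large (60S) subunit and the RPS genes of the small (40S) subunit. They were chosen by symbol alone, as RPL or RPS followed by a number, with RPLP0, RPLP1, RPLP2 and RPSA added and the RPS6K kinases left out. This gave 82 of the 13920 genes in the count table, 50 of the 60S subunit and 32 of the 40S subunit. The rule matched 84 symbols in the NCBI gene table, and RPL3L and RPL10L were not among the genes counted here. A few further genes, such as FAU, RACK1 and RPL36AL, encode ribosomal proteins but lie outside the naming rule.

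The RNA came from day 4 spheroids grown from T47D, a line of human breast cancer cells. Wild-type (WT) cells gave 4 libraries (experiments 10, 11, 15 and 16), the SAMHD1 knock-out (KO) clone A1 gave 4 (the same experiments) and the KO clone A2 gave 2 (experiments 15 and 16). SAMHD1 encodes a dNTP hydrolase. The knock-outs were made by CRISPR-Cas9 directed at exon 5, no agent was added to any group, and each KO line is 1 clone, so that the effect of the knock-out and the history of a clone cannot be told apart within a clone. The study's methods describe biological duplicates, and the libraries of a group differ in experiment number, so that each pair of experiments gives 2 libraries per group. Library totals lay between 40077369 and 51311482 counts. SAMHD1 (NCBI gene 25939, chromosome 20 from 36889773 to 36951708) had 49.8 to 56.4 CPM (reads of a gene relative to the whole library, after TMM correction for composition) in WT, 22.5 and 22.99 CPM in clone A1 of experiments 10 and 11, 6.44 and 6.15 CPM in clone A1 of experiments 15 and 16, and 23.6 and 20.2 CPM in clone A2. The gene was therefore lower in every KO library, but its transcript was not absent in any, and counts per gene do not show the edited exon. Of 9 markers of luminal breast epithelium 8 were in the table, and 4 of them were low in every library: ESR1, the estrogen receptor, had 0.183 to 1.59 CPM, CDH1 had 0.684 to 2.16 CPM, EPCAM had 0.348 to 1.78 CPM and KRT8 had 3.1 to 9.07 CPM, while KRT19 was not listed. The other 4 were higher, with 36.3 to 60.3 CPM for KRT18, 14.1 to 26.8 CPM for FOXA1, 15.4 to 24.8 CPM for GATA3 and 15.4 to 20.7 CPM for PGR. In KO against WT of experiments 15 and 16, KRT8 and KRT18 were lower (log2 fold changes of −0.83 and −0.23) and FOXA1 was higher (0.39). The label T47D is therefore used here as a name for these cultures only. The lists for fibroblasts, leukocytes and endothelium had 3, 2 and 1 listed genes, of which COL3A1 had 8.46 to 17.9 CPM in WT and 1.66 to 12.7 CPM in the KO libraries, and CD14 had 0.206 to 0.816 CPM. The part of these markers in the results was not tested. In bulk RNA, fewer cells of a type and less RNA per cell cannot be told apart.

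Each ribosome holds 1 copy of nearly every one of these proteins, so cells make them in balance, from short and very abundant mRNAs. Most of these mRNAs begin with a C followed by a run of pyrimidines, the 5′ terminal oligopyrimidine (TOP) motif, through which mTOR controls their translation. The acidic proteins P1 and P2, held by P0, form the stalk that recruits the elongation factors, and a few ribosomal proteins have a second gene, a paralog, that is used in some tissues or conditions.

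The letters around the annotated start are shown for the members on which the results turn, since the pyrimidine run is the sequence feature these genes share. Of the 82 members 66 had an entry in the RefSeq start table (GRCh38.p14). In the 10 bases on either side of the annotated start, a run of 6 or more C or T bases began in 50 of these 66 (75.8%), against 22.4% of the other counted genes with an entry and 23.6% of all starts in that table. The letters CTTT, read on the gene's own strand, began in the same window in 39 of 66 (59.1%), against 8.12% of the other counted genes and 9.83% of all starts. In the lines below, 10 bases before the start and 20 from the start on are given 5′ to 3′, with capitals for the longest run of C and T among those whose first base lies within 10 bases of the start on either side, so that a run begun further upstream stays in lower case. The first 7 belong to genes that were lower in KO libraries or, for RPL7A and RPL9, were not, and the last 4 to paralogs.
RPLP1 (chr15:69452808-69452837, plus strand): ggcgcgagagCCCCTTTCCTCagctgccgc
RPL4 (chr15:66504836-66504865, minus strand): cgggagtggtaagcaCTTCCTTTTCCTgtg
RPL28 (chr19:55385922-55385951, plus strand): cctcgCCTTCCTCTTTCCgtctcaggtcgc
RPL13A (chr19:49487598-49487627, plus strand): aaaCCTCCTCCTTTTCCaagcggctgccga
RPS16 (chr19:39435930-39435959, minus strand): ccctagCTTTCCTTTTCCggttgcggcgcc
RPL7A (chr9:133348208-133348237, plus strand): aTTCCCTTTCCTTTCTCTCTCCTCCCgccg
RPL9 (chr4:39458903-39458932, minus strand): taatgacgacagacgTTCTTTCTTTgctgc
RPL22L1 (chr3:170870176-170870205, minus strand): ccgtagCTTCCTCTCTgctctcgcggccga
RPL26L1 (chr5:172958719-172958748, plus strand): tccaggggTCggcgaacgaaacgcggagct
RPL7L1 (chr6:42879606-42879635, plus strand): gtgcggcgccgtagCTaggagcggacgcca
RPS27L (chr15:63157458-63157487, minus strand): gatgccgagcgcagatcgCTTgcagcttgc
Long runs stood at the start of genes that fell, such as RPL28, and of genes that did not, such as RPL7A, whose run has 25 bases. RPL26L1 and RPL7L1 had no run of more than 2 bases that began there, and RPS27L none of more than 3. A match describes letters at an annotated start and not the start used in these cells.

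Levels between genes were compared only after division by length, as CPM per kilobase of the canonical transcript (GENCODE v44). RPS2 had the highest mean over the 10 libraries (4548 CPM per kilobase), and RPL7A (3728), RPL39 (3418) and RPS18 (2975) were also among the 5 highest. The 5 lowest were all paralogs: RPL7L1 (55.4), RPL26L1 (53.5), RPL39L (24.1), RPL22L1 (16.2) and RPS27L (7.95). The annotated canonical transcripts of some members, such as RPL37 with 7573 bases, carry long untranslated regions that these short mRNAs may not have. Per kilobase of coding sequence alone the same 5 paralogs were the lowest, between 84.1 CPM per kilobase for RPL22L1 and 326 for RPL7L1, and RPL41 (15278) took the first place before RPL39 (8712) and RPS2 (4890). Reads that could also come from pseudogenes of these genes were assigned in a way not given in the sources used here, and the readthrough genes RPL17-C18orf32, RPL36A-HNRNPH2 and RPS10-NUDT3, with means of 17.2, 45.5 and 14.5 CPM, overlap members, so the values of RPL17, RPL36A and RPS10 are less certain.

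Together the 82 members held between 8.42% and 10.3% of all counts in a library. In WT their share was 10.3%, 10.3%, 9.66% and 9.21% in experiments 10, 11, 15 and 16. In clone A1 it was 9.67%, 9.77%, 8.99% and 8.42% in the same order, and in clone A2 it was 8.67% and 8.45% in experiments 15 and 16. Each of the 6 KO libraries thus had a lower share than WT of its own experiment, but the groups overlapped, since clone A1 of experiments 10 and 11 lay above WT of experiments 15 and 16. The mean was 9.87% ± 0.54 (SD, n = 4) in WT and 8.996% ± 0.60 (SD, n = 6) in KO. The mitochondrially encoded genes took 7.79% to 13.9% of the counts, most of all in clone A1 of experiment 15. With those counts left out, the members' share in that library was 10.4%, above WT of experiment 16 (10.2%) but still below WT of its own experiment (10.8%). The part of the mitochondrial counts in the members' share was not tested otherwise. The ratio of 60S to 40S counts lay between 1.496 and 1.55 in the 10 libraries, and it was slightly higher in KO than in WT of the same experiment in all 6 pairs.

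**Figure D1:**
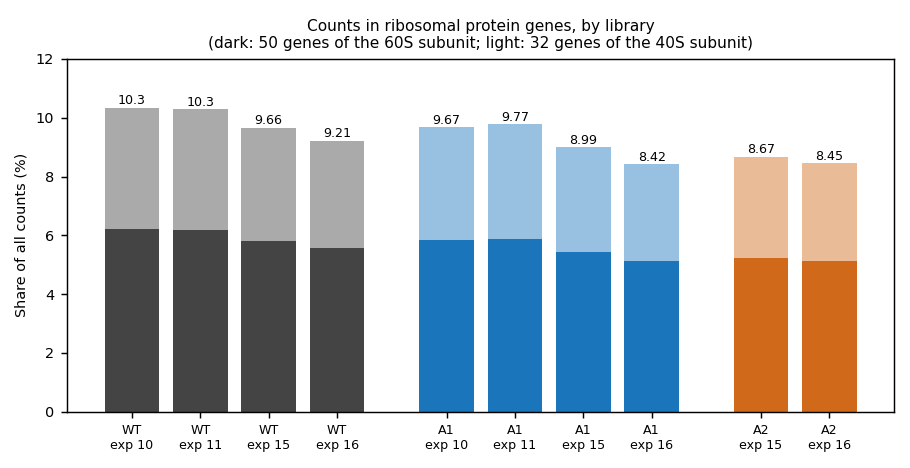
Share of all counts in the 50 genes of the 60S subunit (dark) and the 32 genes of the 40S subunit (light), in percent, in each of the 10 libraries, with their sum above each bar. The sums run from 10.3% in WT of experiment 10 to 8.42% in clone A1 of experiment 16, and the KO library is lower than WT in each experiment.

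Gene by gene, the same-experiment differences went down in every pair. Of the 82 members, 72, 59, 58 and 73 had a lower log2 CPM in clone A1 than in WT in experiments 10, 11, 15 and 16, with median differences of −0.08, −0.06, −0.08 and −0.14. Clone A2 was below WT for 74 and 73 members in experiments 15 and 16, with medians of −0.16 and −0.16. Among the other genes between 48.1% and 50.1% were lower in these 6 pairs. Differences of like size were also seen between libraries of 1 group: 78 members were lower in WT of experiment 16 than in WT of experiment 15 (median −0.08), 80 in clone A1 (median −0.14) and 77 in clone A2 (median −0.08), whereas experiments 10 and 11 differed by medians of −0.02 in WT and 0.002 in clone A1. The members therefore moved together between experiments as well as between genotypes.

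The study asked how KO spheroids differ from WT, and experiments 15 and 16 hold 2 libraries each of WT, clone A1 and clone A2. In this comparison of 4 KO with 2 WT libraries, 23 of the 82 members were lower and 1 was higher (edgeR quasi-likelihood test, Benjamini-Hochberg adjusted p under 0.05 over all 13920 genes), where 5.13% of all genes were called lower and 4.86% higher. A fold change below 0 was found for 72 members, and the median log2 fold change was −0.13 (8.92% lower), against 0.003 over all genes. With library totals in place of the composition scaling the median was −0.11. All 4 KO libraries were below both WT libraries for 41 members (17.4% of all genes) and above both for 3 (18% of all genes). With the experiment as a block 27 members were lower (5.44% of all genes). The fall took in 12 of the 32 genes of the 40S subunit (median −0.17) and 11 of the 50 genes of the 60S subunit (median −0.11), with 1 higher. The count rested on single libraries: it was 1 (RPLP1) when WT of experiment 15 was left out, 10 when WT of experiment 16 was, 15 when clone A2 of experiment 16 was, and 42 when clone A1 of experiment 15 was, the library with the large mitochondrial share.

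**Figure D2:**
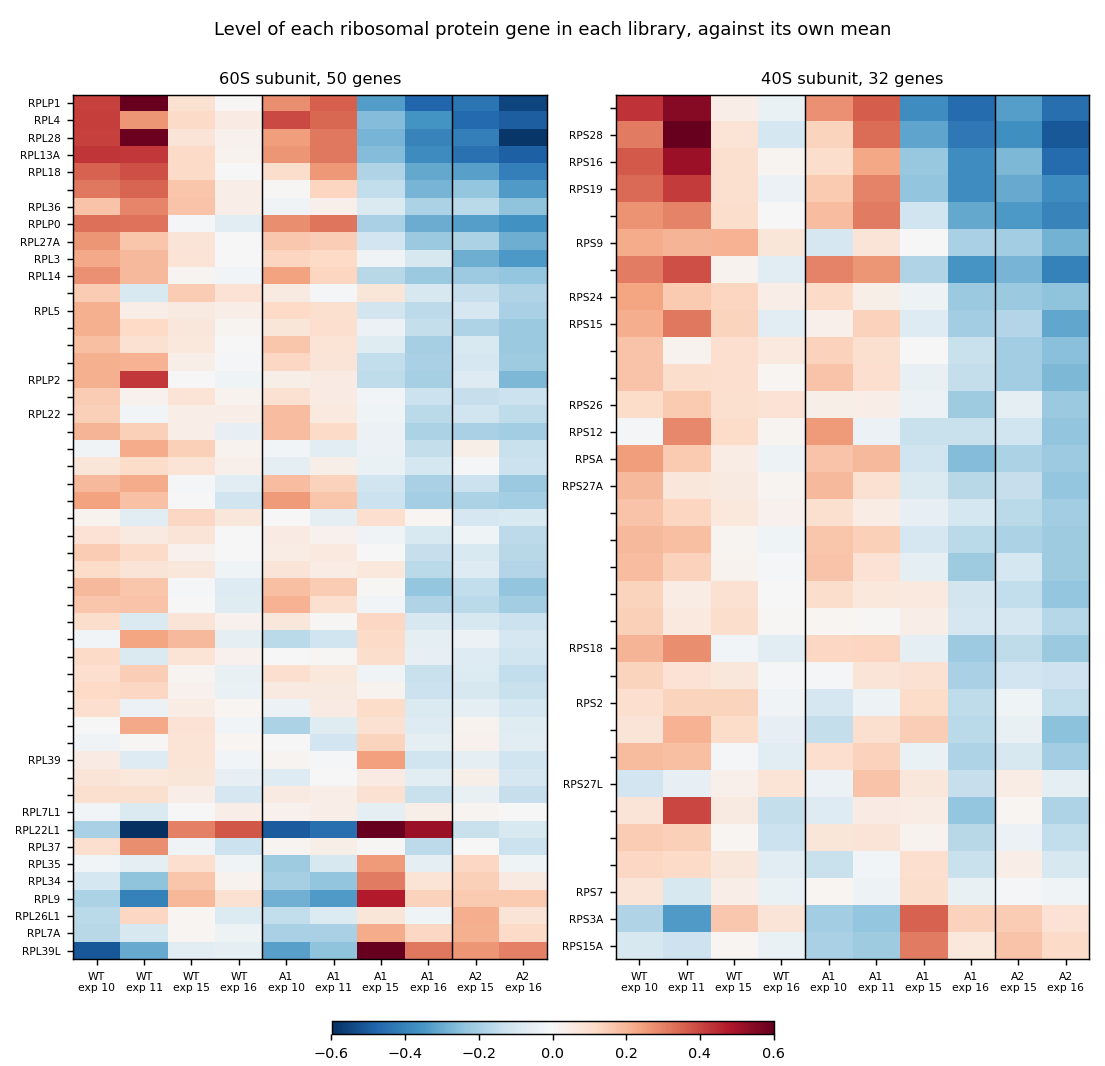
Log2 CPM of each of the 82 members in each library minus its own mean over the 10 libraries, with the 60S genes on the left and the 40S genes on the right, some rows named, each ordered from the most negative KO against WT fold change in experiments 15 and 16 at the top. Most rows are red in experiments 10 and 11, in WT and in clone A1 alike, and pale red in WT of experiment 15 (72 members above their own mean), near white in WT of experiment 16 (38 above) and blue in clone A1 of experiment 16 and in clone A2, and the lowest rows, among them RPL39L, RPL7A and RPS15A, run the other way.

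Of the 3 stalk genes RPLP1 and RPLP0 were called lower and RPLP2 was not. Below, values are given in the order of experiments 10, 11, 15 and 16 for WT and clone A1 and of 15 and 16 for clone A2. RPLP1, the gene of stalk protein P1 (NCBI gene 6176, chromosome 15 from 69452818 to 69456205), had 1486, 1760.1, 1191 and 1122 CPM in WT, 1353, 1432, 885 and 803 CPM in clone A1 and 825 and 762 CPM in clone A2. It showed the largest fall of the 82 in experiments 15 and 16 (−0.50 ± 0.063 (SE), adjusted p = 0.000847), and within each experiment the KO library was lower. RPLP0, the gene of the P0 base of the stalk (NCBI gene 6175, chromosome 12 from 120196699 to 120201111), had 2627, 2621, 2073 and 1995 CPM in WT, 2535, 2609.6, 1824 and 1701 CPM in clone A1 and 1662 and 1624 CPM in clone A2. Its fold change was −0.26 ± 0.060 (SE), adjusted p = 0.0182, with the KO libraries of experiments 15 and 16 all below WT of the same experiments, whereas in experiments 10 and 11 clone A1 and WT differed little. This call was lost without either WT library of the later pair. RPLP2, the gene of stalk protein P2 (NCBI gene 6181, chromosome 11 from 809967 to 812876), had 836, 965, 719.8 and 708 CPM in WT, 738, 744, 648 and 626 CPM in clone A1 and 683 and 598 CPM in clone A2. It did not pass the test (−0.16 ± 0.059 (SE), adjusted p = 0.108), although its KO values lay below both WT values of those experiments.

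Other 60S genes with large falls encode proteins of the subunit body. RPL4, whose product lines the peptide exit tunnel (NCBI gene 6124, chromosome 15 from 66498015 to 66504855), had 3424, 3080.3, 2784 and 2653 CPM in WT, 3377, 3259, 2142 and 2004 CPM in clone A1 and 1858 and 1823 CPM in clone A2. Its KO libraries lay far below WT in experiments 15 and 16 (−0.48 ± 0.069 (SE), adjusted p = 0.00171) but not in experiments 10 and 11. RPL13A, whose product also takes part in translational silencing of inflammatory mRNAs (NCBI gene 23521, chromosome 19 from 49487608 to 49492308), had 3302, 3282, 2652 and 2487 CPM in WT, 2946, 3049, 2047 and 1888 CPM in clone A1 and 1797 and 1745 CPM in clone A2, a log2 fold change of −0.46 ± 0.068 (SE), adjusted p = 0.00198. RPL28 (NCBI gene 6158, chromosome 19 from 55385932 to 55403342) had 805, 910.4, 639 and 615 CPM in WT, 721, 753, 499 and 458 CPM in clone A1 and 456 and 404 CPM in clone A2, with −0.47 ± 0.072 (SE), adjusted p = 0.00245. For these 2 genes clone A1 was below WT in all 4 experiments. RPL18 was also lower, with a log2 fold change of −0.36, and RPL36, RPL27A, RPL14 and RPL5 had −0.28, −0.24, −0.21 and −0.19 (adjusted p between 0.0146 and 0.0401 for the last 4). RPL5, which binds 5S rRNA and MDM2, was thus at the small end of the falls that were called.

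In the 40S subunit RPS28, RPS16 and RPS19 were among the genes with the largest falls. RPS28, whose product lies at the mRNA exit side of the small subunit (NCBI gene 6234, chromosome 19 from 8321496 to 8323340), had 305, 448, 260.1 and 229 CPM in WT, 269.6, 310.4, 197 and 183 CPM in clone A1 and 190.3 and 173 CPM in clone A2, with −0.40 ± 0.069 (SE), adjusted p = 0.00439, and its WT values of experiments 10 and 11 differed widely. RPS16 (NCBI gene 6217, chromosome 19 from 39433137 to 39435949) had 968, 1071, 800.2 and 758 CPM in WT, 805, 879.8, 640.2 and 578 CPM in clone A1 and 622 and 545 CPM in clone A2, with −0.39 ± 0.067 (SE), adjusted p = 0.00434. RPS19, mutated in Diamond-Blackfan anemia (NCBI gene 6223, chromosome 19 from 41860255 to 41872925), had 1930.2, 2040.2, 1629 and 1488 CPM in WT, 1699, 1871, 1293 and 1178 CPM in clone A1 and 1235 and 1178 CPM in clone A2, with −0.35 ± 0.061 (SE), adjusted p = 0.00426. In all of these 3 genes clone A1 was lower than WT in each of the 4 experiments. RPS9, RPS24, RPS12, RPS26, RPSA and RPS27A were also called lower, with log2 fold changes from −0.31 for RPS9 to −0.19 for RPS27A. RPS27A encodes ubiquitin fused to a ribosomal protein.

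Not every abundant member took part. RPL7A (NCBI gene 6130, chromosome 9 from 133348218 to 133351426) had 2926, 3081, 3310.0 and 3217 CPM in WT, 2869, 2876, 3832 and 3584 CPM in clone A1 and 3810.0 and 3563 CPM in clone A2. Its 4 KO libraries of experiments 15 and 16 lay above both WT libraries, but the difference did not pass the test (0.18 ± 0.059 (SE), adjusted p = 0.0749). RPS15A behaved alike (685 and 662 CPM in WT, 844 and 711 CPM in clone A1 and 766 and 737 CPM in clone A2 in experiments 15 and 16, 0.18 ± 0.069 (SE), adjusted p = 0.119). RPS7 and RPL37 had log2 fold changes of 0.01 and 0.01.

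Taken apart by clone in a model with 5 groups, 13 members were lower and 1 was higher in clone A1 of experiments 15 and 16 (background 4.29% lower, 3.95% higher), with a median of −0.10, −0.13 for the 40S and −0.09 for the 60S genes. Clone A2 of the same experiments had 31 lower and 1 higher (background 9.07% and 7.33%), with a median of −0.17, −0.22 for the 40S and −0.15 for the 60S genes. Both comparisons use the same 2 WT libraries. With the experiment number as a block the counts of lower members were 31 for clone A1 (background 8.99%) and 54 for clone A2 (background 14%). Single libraries moved the clone A1 count to 4 (leaving out WT of experiment 15 or clone A1 of experiment 16) or to 22 (leaving out WT of experiment 10 or 11). They moved the clone A2 count to 11 when WT of experiment 15 was left out, to 13 for clone A2 of experiment 16 and to 20 for WT of experiment 16. The shares of all genes called without these libraries are not given here. Without clone A1 of experiment 15 the median of clone A1 was −0.19.

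**Figure D3:**
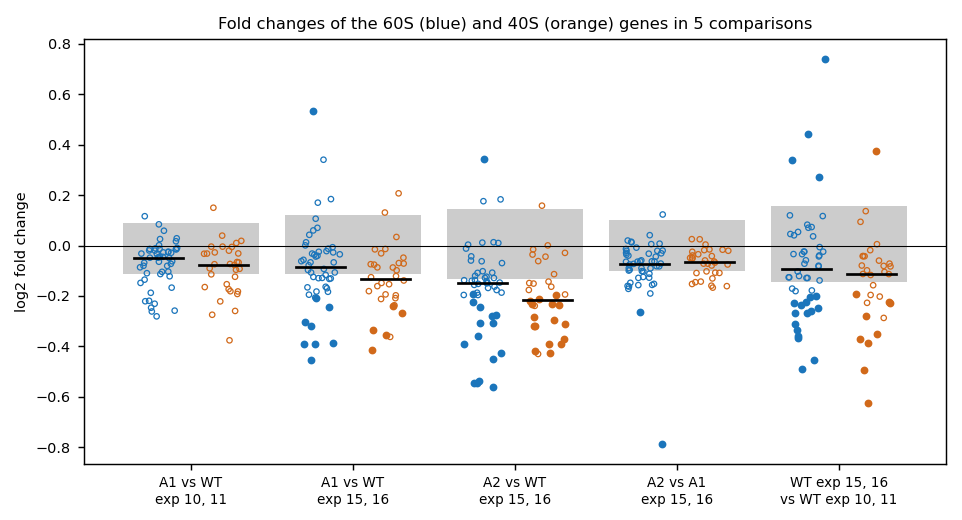
Log2 fold changes (vertical axis) of the 50 genes of the 60S subunit (blue) and the 32 of the 40S subunit (orange) in 5 comparisons; filled points passed the test, black bars are medians and grey bands hold the middle 50% of all other genes. Most points lie below 0 in each comparison, with medians between −0.05 for the 60S genes of clone A1 in experiments 10 and 11 and −0.22 for the 40S genes of clone A2.

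Side by side against WT, some genes had like values in both clones and others not. RPLP1 had −0.45 in clone A1 and −0.54 in clone A2, RPS19 −0.33 and −0.37, and RPLP0 −0.21 and −0.31. RPL3 had −0.10 and −0.36, and RPL22L1 0.34 and −0.45, with opposite signs. The difference itself was tested as clone A2 against clone A1. It called 2 members, RPL3 and RPL22L1, both lower in clone A2 (background 3.07% lower and 1.07% higher), while 72 members were below 0 with a median of −0.07. That median was 0.009 without clone A1 of experiment 15. It was −0.02 with library totals in place of the composition scaling, so it depended on both choices. Without that library, clone A1 of experiment 16 alone stood against clone A2 of both experiments, so clone and experiment were mixed. Within experiment 16 the members' median log2 deviation from their own mean was −0.159 in clone A1 and −0.205 in clone A2. Their share of all counts there was 8.42% and 8.45%. With the experiment as a block 10 members were lower (background 5.26%). RPL3, a protein of the peptidyl transferase region (NCBI gene 6122, chromosome 22 from 39312882 to 39319623), had 2784, 2719.6, 2513 and 2376 CPM in WT, 2599, 2585, 2345 and 2227 CPM in clone A1 and 1941 and 1869.8 CPM in clone A2. Its fold change in clone A2 against clone A1 was −0.26 ± 0.062 (SE), adjusted p = 0.02. The 177 other counted genes within 10 Mb of it had a median of −0.52 in the same contrast, and 75.7% of the other 317 genes of chromosome 22 were called lower, so the change of RPL3 was smaller than the median of its neighbours. Its call was lost without clone A1 of experiment 15 or either library of clone A2. RPL22L1 is described with the paralogs.

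In the earlier experiments, clone A1 against WT of experiments 10 and 11 called none of the 82 members (edgeR; background 0.165% lower and 0.0287% higher), with 18 at an unadjusted p under 0.05, all of them lower (978 of all 13920 genes were lower at that threshold), and 71 members below 0 with a median of −0.06 (40S −0.08, 60S −0.05). This direction turned when the trend on transcript length was removed, with a median of 0.02 and 34 of 82 members below the trend. DESeq2 and limma also called none. Some members were called lower when WT of experiment 10 was left out, which left 1 WT library in that pair. With the experiment as a block 16 members were lower (background 2.1%). Between the pairs of experiments the clone A1 effect differed for 1 member, RPL4 (−0.42 ± 0.096 (SE), adjusted p = 0.0288; background 0.941% lower and 1.56% higher), with fold changes of 0.03 in experiments 10 and 11 and −0.39 in experiments 15 and 16. This call was lost without any 1 of WT of experiments 11, 15 or 16 or of clone A1 of experiments 10, 11 or 16. With the block 5 members had a more negative effect in the later pair (background 4.09%) and 3 a more positive one. The effect of clone A1 in experiments 10 and 11 and that of clone A2 in experiments 15 and 16 share no library. Without removal of the length trend, a negative fold change in both was found for 64 of the 82 members (78.0%) and for 23.9% of the other genes. In the first effect 71 members and 49.9% of the other genes were below 0, and in the second 73 and 48.3%. Shares near those seen in both follow from these counts alone, without agreement gene by gene. Across the 82 members the fold changes had a Pearson's r of 0.324 and a Spearman's rho of 0.189, a description across genes that are not independent of each other.

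A fit of the 8 WT and clone A1 libraries of all 4 experiments was added after the data had been seen. Without a block no gene was called, and with the experiment as a block 3 members were lower (background 0.144%), among them RPS28 (log2 fold change −0.35 ± 0.059 SE, adjusted p = 0.0456) and RPS16 (−0.31 ± 0.047 SE, adjusted p = 0.0423). RPL28 and RPLP1 followed with −0.30 (adjusted p = 0.0528) and −0.33 (adjusted p = 0.0565).

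Over all 10 libraries, 6 KO against 4 WT, the edgeR test called no member and no gene (background 0%), with 17 members lower and 1 higher at an unadjusted p under 0.05 (654 of all 13920 genes were lower at that threshold), 70 members below 0 and a median of −0.13. DESeq2 called no member either. With the experiment as a block 10 members were lower (background 0.56%). In this comparison 2 members had all 6 KO libraries below all 4 WT libraries (background 0.862%), and none had all above (background 0.647%). RPL36 (NCBI gene 25873, chromosome 19 from 5690295 to 5691875) had 1048, 1141, 1046 and 956 CPM in WT, 916, 949, 878 and 815 CPM in clone A1 and 831 and 787 CPM in clone A2, means of 1048 ± 75.4 CPM (SD, n = 4) in WT and 863 ± 62.5 CPM (SD, n = 6) in KO. RPS26, whose product lies at the mRNA exit channel (NCBI gene 6231, chromosome 12 from 56041918 to 56044697), had 331, 341, 327 and 326 CPM in WT, 314, 315, 299 and 265 CPM in clone A1 and 294 and 263 CPM in clone A2, means of 331 ± 7.01 CPM (SD, n = 4) and 292 ± 23.2 CPM (SD, n = 6). Neither passed the test (adjusted p = 0.576 for both).

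WT itself changed between the experiment pairs. In WT of experiments 15 and 16 against WT of experiments 10 and 11, 24 members were lower and 5 higher (background 7.74% lower, 8.61% higher), with a median of −0.11. The lower ones held RPS28 (−0.62 ± 0.16 (SE), adjusted p = 0.033), RPLP1 (−0.49 ± 0.081 (SE), adjusted p = 0.000877), RPL28 (−0.45 ± 0.076 (SE), adjusted p = 0.00101), RPLP0 (−0.37) and RPLP2 (−0.33). For RPLP1, WT fell by this much with SAMHD1 intact, from 1486 and 1760 CPM to 1191 and 1122 CPM. The higher ones were RPL22L1, RPL39L, RPL9, RPS3A and RPL34, with 0.74, 0.34, 0.44, 0.38 and 0.27. WT of experiments 15 and 16 also enters the comparisons of KO with WT, with the opposite sign. Without WT of experiment 16 the counts were 6 lower and 3 higher, and without WT of experiment 15 they were 12 and 2.

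Of the paralogs RPL39L and RPL22L1 passed tests and the others none. RPL39L, the paralog of RPL39 known from testis (NCBI gene 116832, chromosome 3 from 187120948 to 187139496), had 12.04, 13.9, 16.4 and 16.5 CPM in WT, 13.6, 14.5, 26.2 and 21.3 CPM in clone A1 and 20.6 and 21.1 CPM in clone A2. It was the member called higher in KO in experiments 15 and 16 (0.44 ± 0.10 (SE), adjusted p = 0.0196), with 0.53 ± 0.11 (SE), adjusted p = 0.00507 in clone A1 and 0.34 ± 0.11 (SE), adjusted p = 0.0352 in clone A2. The call over both clones was lost without either WT library of experiments 15 and 16. In experiments 10 and 11 clone A1 and WT were close (0.12 ± 0.11 (SE), adjusted p = 0.682), and the test of the difference between the pairs was not passed (0.42 ± 0.15 (SE), adjusted p = 0.176). RPL39 itself (NCBI gene 6170, chromosome X from 119786504 to 119791630) had 1376, 1259.9, 1408 and 1313 CPM in WT, 1345, 1322, 1578 and 1224 CPM in clone A1 and 1281 and 1222 CPM in clone A2, and none of its comparisons passed the test. Per kilobase of coding sequence RPL39 was 75.7 times as high as RPL39L, and 142 times per kilobase of transcript.

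RPL22L1, the paralog of the RNA-binding protein gene RPL22 (NCBI gene 200916, chromosome 3 from 170864875 to 170870195), varied more than any other member, over a range of 1.46 on the log2 scale. It had 25.5, 18.7, 36.02 and 37.9 CPM in WT, 20.7, 21.4, 51.7 and 41.9 CPM in clone A1 and 26.7 and 27.5 CPM in clone A2. WT of experiments 15 and 16 was higher than WT of experiments 10 and 11 (0.74 ± 0.12 (SE), adjusted p = 0.000981), and clone A2 was lower than WT (−0.45 ± 0.12 (SE), adjusted p = 0.0187) and than clone A1 (−0.79 ± 0.12 (SE), adjusted p = 0.000742) of the same experiments. Clone A1 against WT of those experiments was 0.34 ± 0.12 (SE), adjusted p = 0.0916, which did not pass. RPL22 had 616, 551, 574 and 573 CPM in WT, 634, 581, 547 and 499 CPM in clone A1 and 513 and 502 CPM in clone A2, with the KO libraries of experiments 15 and 16 below WT of those experiments, which did not pass either (−0.16 ± 0.055 (SE), adjusted p = 0.0954).

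The other paralogs differed little between groups. RPL26L1 had 34.5 to 44.8 CPM, RPL7L1 235 to 256 CPM and RPS27L, a p53 target, 44.01 to 54.5 CPM, and none of them passed any of the 8 tests. RPL26, RPL7 and RPS27 were 30.2, 5.84 and 12.4 times as high as these paralogs per kilobase of coding sequence. RPL36AL, outside the naming rule, had 56.1 to 65.8 CPM.

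**Figure D4:**
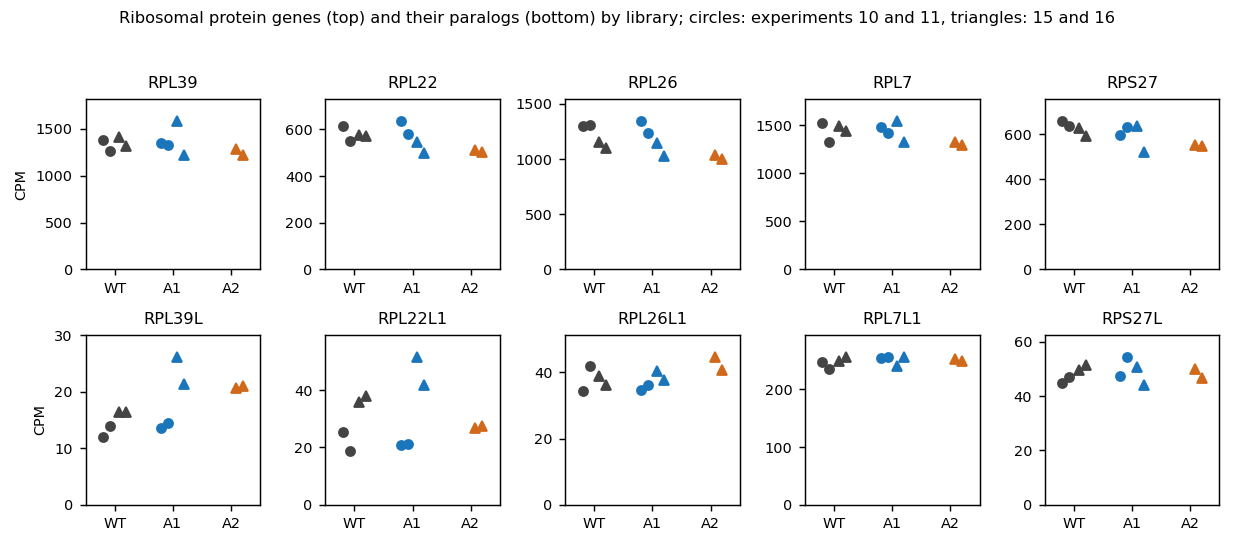
CPM (vertical axis, from 0) of 5 ribosomal protein genes (top) and of their paralogs (bottom) in each library of WT, clone A1 and clone A2, with circles for experiments 10 and 11 and triangles for 15 and 16. RPL39L is highest in the KO libraries of experiments 15 and 16 (20.6 to 26.2 CPM), and RPL22L1 is higher in clone A1 (51.7 and 41.9 CPM) than in clone A2 (26.7 and 27.5 CPM) of those experiments.

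The falls were unevenly spread over the chromosomes. Of the 12 members on chromosome 19, 11 were called lower in KO against WT of experiments 15 and 16, all but RPS15, with a median log2 fold change of −0.36. The other 958 counted genes of chromosome 19 also lay low, with a median of −0.17 and 20.1% called lower. On chromosome 15, 3 of 4 members, RPLP1 and RPL4 among them, were lower, against 14.8% of the other 452 genes. The 70 members outside chromosome 19 had 12 lower and 1 higher, a median of −0.11, and neighbours with a median of 0.006. The 3 members of chromosome 4, RPL9, RPS3A and RPL34, had a median of 0.07 with neighbours at 0.15, and all 3 were among the 5 members higher in WT of the later experiments, where the other 518 genes of chromosome 4 had a median of 0.35. When the median of the other genes within 10 Mb was subtracted from each member, the median became −0.13 for KO against WT of experiments 15 and 16, and 77 of 82 members lay below their neighbours. It became −0.09 for clone A1 and −0.17 for clone A2 of those experiments, −0.06 for clone A1 in experiments 10 and 11 and −0.09 between the WT pairs. RPL7A, whose own change was positive, also lay below its neighbours, by −0.09.

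**Figure D5:**
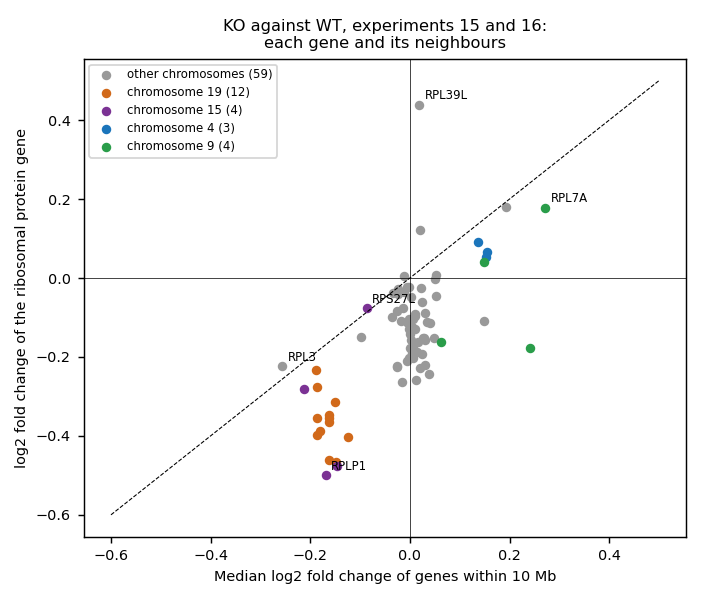
Log2 fold change of each member (vertical axis) against the median of the other counted genes within 10 Mb (horizontal axis) in KO against WT of experiments 15 and 16, with a dashed line where they are equal; colours mark chromosomes 19, 15, 4 and 9. Of the 82 points 77 lie below the dashed line, and the chromosome 19 genes lie low on both axes.

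Base composition moved with the fold changes. Across the 82 members, Spearman's rho between the transcript's GC content and the fold change was −0.369 in KO against WT of experiments 15 and 16 (−0.122 over the other genes) and −0.63 in clone A1 against WT of experiments 10 and 11 (−0.565 over the other genes). The members share library and annotation, so these values describe the pattern only. With transcript length rho was −0.00865 across the members and 0.0923 over the other genes in KO against WT of experiments 15 and 16, and 0.0981 and 0.272 in clone A1 against WT of experiments 10 and 11. Members have short transcripts, with a median of 827 bases against 3402 for other genes. With the trend on transcript length removed, the median was −0.10 in KO against WT of experiments 15 and 16, but 0.02 in clone A1 against WT of experiments 10 and 11. The part of GC content and length in the falls was not tested further. In KO against WT of experiments 15 and 16, where 5.13% of all genes were lower, start groups were also compared. Members with a run of 6 or more pyrimidines at the start had a median of −0.15 (50 genes, 17 called lower). Those without one had −0.12 (16 genes, 1 called lower). Every chromosome 19 member with an entry had such a run, and 20.1% of the other genes of that chromosome were lower. The paralogs RPL7L1, RPL26L1 and RPS27L had none. Run and chromosome were not told apart by a test.

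Genes that work with the ribosome were read from the same test in KO against WT of experiments 15 and 16, where 5.13% of all genes were lower and 4.86% higher. Of 18 translation factors and other TOP mRNAs 6 were lower and none higher, with a median of −0.17 and 17 below 0. They were EIF4A2 (−0.37), NAP1L1 (−0.34), HNRNPA1 (−0.34), EEF2 (−0.29), NPM1 (−0.23) and PABPC1 (−0.21). Of 46 ribosome biogenesis factors 5 were lower, HEATR1 (−0.54), NPM3 (−0.41), NOLC1 (−0.34), FBL (−0.28) and NOP56 (−0.23), with a median of −0.09. By clone, 9 (19.6%) were lower in clone A1, with a median of −0.16 (background 4.29% lower). In clone A2 6 (13.0%) were lower, with a median of −0.07 (background 9.07% lower). In clone A2 against clone A1 40 of the 46 lay above 0 (median 0.09), where most ribosomal protein genes lay below 0. In that contrast 1 passed the test in each direction (background 3.07% lower and 1.07% higher). Of 22 genes that control ribosome synthesis 3 were higher, TSC1 (0.33), MXI1 (0.27) and RPS6KB1 (0.23), and AKT1S1 was lower (−0.27). Among 77 mitochondrial ribosomal protein genes 4 (5.19%, near the share of all genes) were lower and 1 higher with a median of −0.03, a difference from the cytosolic genes that was not tested. RACK1 and RPL36AL, outside the naming rule, did not pass in this comparison. In clone A1 against WT of experiments 10 and 11 none of the translation factors or biogenesis factors passed, and their medians were 0.03 and 0.02. None of 13 snoRNA host genes was in the table.

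Over the 10 libraries the members varied together. The log2 level of a member had a median Pearson's r of 0.895 with the mean of the other 81, over 10 libraries that share depth scaling, experiment and clone, and 65 of 82 members had an r above 0.5. Below 0 were 10 members, RPL39L (−0.763), RPL7A (−0.723) and RPS3A (−0.607) being the lowest, with RPS15A, RPL9, RPL34, RPL22L1, RPL26L1, RPL7L1 and RPL35. Clone A2 of experiment 16 was the lowest library for 52 members and clone A1 of experiment 16 for 14. WT of experiment 10 was the highest for 34 and WT of experiment 11 for 27, and clone A1 of experiment 15 for 13. The median SD of a member over the libraries was 0.15 on the log2 scale, and that of RPL22L1 was 0.48.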

How the data were processed

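RNA was extracted with the Maxwell HT simplyRNA kit per the labels, or the NucleoSpin RNA II kit per the study's methods, and libraries were made with the TruSeq Stranded mRNA LT kit. The authors aligned reads to GRCh38 with HISAT2 (StringTie is also named in the submitters' processing notes) against NCBI annotation, and removed genes with a count of 0 in any sample, so a gene lost in 1 group cannot appear. Whether counting used strand, and how reads mapping to several places were counted, was not given in the sources used here. The deposited values are raw counts for 13920 NCBI gene IDs. The columns of per-sample values not used numbered 0.

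IDs were joined to symbols with the NCBI gene table (13885 matched), and 82 members had transcript lengths. Members and gene lists were chosen with earlier results of these data known. All 13920 genes were fitted with edgeR 4.0.16 (R 4.3.3; TMM scaling, robust quasi-likelihood test, Benjamini-Hochberg adjustment, threshold 0.05), and members were read from that fit. KO and WT were compared in experiments 15 and 16 (6 libraries), over all 10 libraries, and by clone and experiment pair in a model with 5 groups that share 1 estimate of the spread. The study used the DESeq2 Wald test, which was run as an alternative (DESeq2 1.42.0), beside limma 3.58.1, RLE factors, library totals, a mean count of at least 10, each library left out, the experiment number as a block, neighbours within 10 Mb subtracted and a loess length trend (span 0.3) removed. Log2 CPM used a prior count of 2. Same-experiment WT and clone A1 libraries deviated together from their group means (r = 0.468, 0.474, 0.526 and 0.524 over all genes in experiments 10, 11, 15 and 16), so the fit with the experiment as a block is given beside the results it moves, while the main fits have no block; libraries of the same experiment pair with different numbers had an r of 0.399 to 0.461, nearly as high. For clone A2, with 2 libraries, r was 0.0208 and 0.159 with WT. On simulated counts for KO against WT of experiments 15 and 16, edgeR recovered 100 of 100 genes changed by 1 on the log2 scale and 89 of 100 changed by 0.5, with 8 false calls among 13920 genes. The simulated libraries were independent, with 1 spread for all genes and no effect of clone or experiment. No change smaller than 0.5 was simulated, so these counts do not show how well the smaller changes of most members are called.

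Named genes were, by rule, the stalk genes, the paralog pairs, per comparison up to 8 called members in each direction by adjusted p and the 3 largest changes, the 5 highest and 5 lowest per kilobase, members that differ between experiment pairs, members with no overlap over 10 libraries, and up to 3 called genes per direction of each other list; further members with values were chosen after their values were seen. A few genes picked by this rule are counted with the members but not reported here by name.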

Additional observations from a re-analysis of the deposited data

Results flagged for a closer look

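In clone A1 of experiment 15, RPL39 had 1578 CPM, far from the other 5 KO libraries, which lay between 1222 and 1345 CPM. In the same library RPL7L1 had 239.5 CPM, below the other 3 libraries of clone A1 at 254 to 256 CPM. These were 2 of 93 groups examined for a library far from the rest, of which chance flags about 1 in 20, and clone A1 of experiment 15 is also the library with the largest mitochondrial share (13.9%). The effect of clone A1 on RPL4 differed between the experiment pairs by −0.42 on the log2 scale (adjusted p = 0.0288). Clone A2 differed from clone A1 in RPL3 by −0.26 on the log2 scale (adjusted p = 0.02) and in RPL22L1 by −0.79 (adjusted p = 0.000742). The adjusted p-values are from edgeR.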

How the results depend on the processing

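No called value changed sign under the alternatives run, but without clone A1 of experiment 15 the uncalled median of clone A2 against clone A1 went from −0.07 to 0.009, and that of the change between pairs from −0.04 to 0.005 without WT of experiment 15 and to 0.03 without clone A1 of experiment 16. The experiment as a replicate block moved several counts of lower and higher members. It gave 27 and 2 for KO against WT of experiments 15 and 16 (5.44% of all genes lower) and 10 lower over all libraries (0.56%). It gave 31 and 3 for clone A1 (8.99% of all genes lower) and 54 and 3 for clone A2 (14%). For clone A2 against clone A1 it gave 10 lower (5.26%), and for clone A1 of experiments 10 and 11 16 lower (2.1%). The change between pairs had 5 and 3 (4.09%). The share of all genes called higher with the block is not given here, so the higher counts have no background. Over the 4 experiments of clone A1, chosen after seeing the data, the block gave 3 lower (0.144% of all genes). DESeq2 gave 2 higher in KO, clone A1 and clone A2 of experiments 15 and 16, and library totals gave 2 higher in KO and 3 in clone A2. With the length trend removed the median of clone A1 in experiments 10 and 11 was 0.0204, against −0.06; the cause was not tested.

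With each library left out, the lower counts were 1 to 42 and the higher 0 to 1 for KO of experiments 15 and 16. They were 4 to 22 and 0 to 3 for clone A1 (median −0.187 to −0.0595), and 11 to 40 and 0 to 2 for clone A2. Clone A2 against clone A1 had 1 to 3 lower, clone A1 of experiments 10 and 11 had 0 to 11 lower, the change between pairs 0 to 1 in each direction, and the WT pairs 6 to 27 lower and 2 to 5 higher. The share of all genes called with each library left out is not given here, so a change of the members and a change of all calls cannot be told apart. Where a call for a named gene was lost (79 times), it was with a library left out. The members had means of 17.6 CPM or more in libraries of 40077369 counts or more, and most comparisons had 2 libraries per group.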
